A study of Mus musculus with 8 samples.

Results

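*Ran*, *Rcc1*, *Ranbp1*, *Rangap1*, *Ranbp3*, *Xpo1*, *Kpnb1*, *Kpna2*, *Cse1l* and *Nutf2* encode the small GTPase Ran, the proteins that turn its nucleotide cycle and carriers that depend on it. They were chosen by name, as the rows of the deposited count files with these symbols, and make up 10 of the 24059 symbols listed. All 10 passed the filter on low counts that left 14934 genes for testing. RNA-seq was performed on resting BMMCs, mast cells obtained by growing bone marrow of C57BL/6 mice with IL-3 for at least 4 weeks. Cells were transfected with ribonucleoproteins (RNPs) of Cas9 and a scrambled guide (genotype label Zc3h12a WT) or guides to *Zc3h12a*, the gene of the RNA-degrading protein Regnase-1 (genotype label Zc3h12a KO), and kept in culture for 1 week. Each group had 4 samples, numbered 1 to 4, and by the series' design the cells of 4 mice received both RNPs, so same-numbered samples were compared as pairs. The guides to *Zc3h12a* were a pool of different crRNAs, and each sample was a bulk culture rather than a clone, in which cells without an edit may remain.

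Ran is bound to GTP in the nucleus, where its exchange factor RCC1 sits on chromatin, and to GDP in the cytoplasm, where RanGAP1 together with RanBP1 drives GTP hydrolysis. Importins take up cargo in the cytoplasm and release it when they meet Ran-GTP, whereas exportins such as CRM1 (the product of *Xpo1*) need Ran-GTP to hold cargo. After nuclear envelope breakdown, the same nucleotide gradient around chromosomes guides assembly of the mitotic spindle, and many of these genes are used heavily by dividing cells. *Ran* mRNA has been listed elsewhere among the targets of Regnase-1, which cleaves stem-loops in 3′ untranslated regions; the comparison addresses how *Ran* and its partners stood in cells given the *Zc3h12a* RNP.

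Total counts were 19610240 to 33986762 per sample, with the lowest total in scrambled RNP replicate 4. *Zc3h12a* mRNA itself was at 34.8 ± 6.65 CPM after the scrambled RNP and 33.2 ± 5.91 after the *Zc3h12a* RNP (mean ± SD, n = 4 each), so its level gives no check of the labels. CPM here are counts scaled to the TMM-normalized size of each library. The 14 mast cell markers summed to 61318 to 71170 CPM after the scrambled RNP and 58080 to 61876 CPM after the *Zc3h12a* RNP, against at most 5.02 for 6 macrophage markers, 0.333 for the 3 of 6 neutrophil markers listed, 11.6 for 7 B and T cell markers (1 at 0 in all samples) and 7.64 for 4 erythroid markers. Of the mast cell markers, 13 of 14 had a log2 fold change below 0 (median -0.09), where 57.8% of all genes tested were above 0. This number was 13 with RLE size factors, 9 with total counts in place of TMM factors and 9 without pair 2. At an unadjusted p of at most 0.05 in edgeR's quasi-likelihood test, 3 were lower, against 4.05% of all genes tested. In 4 of 4 pairs, 5 were lower, against 8.54% of all genes tested. *Tpsb2*, a tryptase gene, was at -0.28 (SE 0.077) and *Hdc*, the gene of the histamine-producing enzyme, at -0.75 (SE 0.22). Their Benjamini-Hochberg adjusted p values in that test were 0.554 and 0.645. These markers thus lay on the other side of 0 from the 10 genes, and the part of this in the values below was not tested. Basophil-associated genes (5, some of which mast cells also express) summed to 559 to 1236 CPM. In bulk RNA, fewer cells of a type and less RNA per cell cannot be told apart.

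The first group of genes is the GTPase and the proteins that switch it. *Ran*, the GTPase, was at 225, 284, 192 and 99.7 CPM in scrambled RNP replicates 1 to 4 and at 225, 231, 288 and 178 CPM in *Zc3h12a* RNP replicates 1 to 4. The groups overlapped, and scrambled replicate 4 stood below all other samples. The log2 fold change was 0.28 with a standard error (SE) of 0.18, and the difference within pairs (log2 CPM after the *Zc3h12a* RNP minus log2 CPM after the scrambled RNP) was -0.0024, -0.30, 0.58 and 0.84. Pairs 3 and 4 were thus higher, pair 2 lower and pair 1 level. *Rcc1*, the gene of the nuclear exchange factor, was at 24.9, 30.4, 18.9 and 8.99 CPM after the scrambled RNP and at 32.6, 26.4, 27.9 and 21.7 CPM after the *Zc3h12a* RNP. Its scrambled samples spanned 3.38-fold and its *Zc3h12a* RNP samples 1.5-fold, and the lowest sample was again scrambled replicate 4. The log2 fold change of *Rcc1* was 0.48 (SE 0.20), the largest of the 10 genes.

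*Ranbp1*, which encodes the cytoplasmic cofactor that pulls Ran-GTP off carriers for hydrolysis, had 119, 155, 146 and 60.8 CPM after the scrambled RNP and 131, 131, 142 and 77.6 CPM after the *Zc3h12a* RNP. Replicate 4 was the lowest sample of each group, and the group means were nearly equal (120.0 ± 42.4 and 120.3 ± 29.0 CPM, n = 4 each). *Rangap1*, whose product activates hydrolysis at the cytoplasmic face of the pore, had 138, 146, 161 and 83.9 CPM after the scrambled RNP and 152, 135, 139 and 119 CPM after the *Zc3h12a* RNP. With TMM factors, both genes were higher in pairs 1 and 4 and lower in pairs 2 and 3; with total counts, *Ranbp1* was lower in pair 2 alone and *Rangap1* in pair 3 alone. Their log2 fold changes were 0.05 (SE 0.11) for *Ranbp1* and 0.08 (SE 0.12) for *Rangap1*, each less than its SE.

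The second group is the carriers of export. *Xpo1*, which encodes the main export receptor for proteins with leucine-rich signals, was at 74.8, 78.3, 91.9 and 73.3 CPM after the scrambled RNP and at 78.5, 81.4, 93.5 and 99.1 CPM after the *Zc3h12a* RNP. It varied least within the scrambled group (1.25-fold), and it was higher in each of the 4 pairs, by 0.07, 0.06, 0.02 and 0.44 on the log2 scale. *Ranbp3*, which encodes a nuclear cofactor of CRM1, was at 79.8, 83.3, 61.7 and 61.7 CPM after the scrambled RNP and at 81.8, 88.6, 67.0 and 74.4 CPM after the *Zc3h12a* RNP. It too was higher in 4 of 4 pairs, with replicates 1 and 2 above replicates 3 and 4 in both groups. With another scaling, that of RLE size factors, *Xpo1* was higher in 3 pairs and *Ranbp3* in 2. *Cse1l*, which encodes the exportin that returns importin alpha to the cytoplasm, had 65.1, 70.6, 70.2 and 53.3 CPM after the scrambled RNP and 75.3, 66.6, 85.7 and 71.8 CPM after the *Zc3h12a* RNP. Its log2 fold change was 0.21 (SE 0.099), with pair 2 alone lower.

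The third group is the carriers of import. *Kpnb1*, the gene of importin beta, was at 256, 418, 247 and 164 CPM after the scrambled RNP and at 300.3, 393, 271 and 232 CPM after the *Zc3h12a* RNP. Replicate 2 was the highest and replicate 4 the lowest sample of both groups, and the log2 fold change was 0.19 (SE 0.11). *Kpna2*, the gene of an importin alpha that binds classical nuclear localization signals and rises with proliferation, was at 63.0, 75.5, 132 and 71.9 CPM after the scrambled RNP and at 87.4, 67.3, 147 and 123 CPM after the *Zc3h12a* RNP. *Kpna2* had its highest value of both groups in replicate 3, with scrambled replicate 4 close to replicates 1 and 2. Its log2 fold change was 0.31 (SE 0.15). *Nutf2*, the gene of NTF2, which carries Ran-GDP back into the nucleus, had 44.1, 51.8, 44.5 and 23.4 CPM after the scrambled RNP and 45.9, 41.4, 48.2 and 34.7 CPM after the *Zc3h12a* RNP. Replicate 4 was the lowest *Nutf2* value of both groups, and the log2 fold change was 0.10 (SE 0.14).

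**Figure D1:**
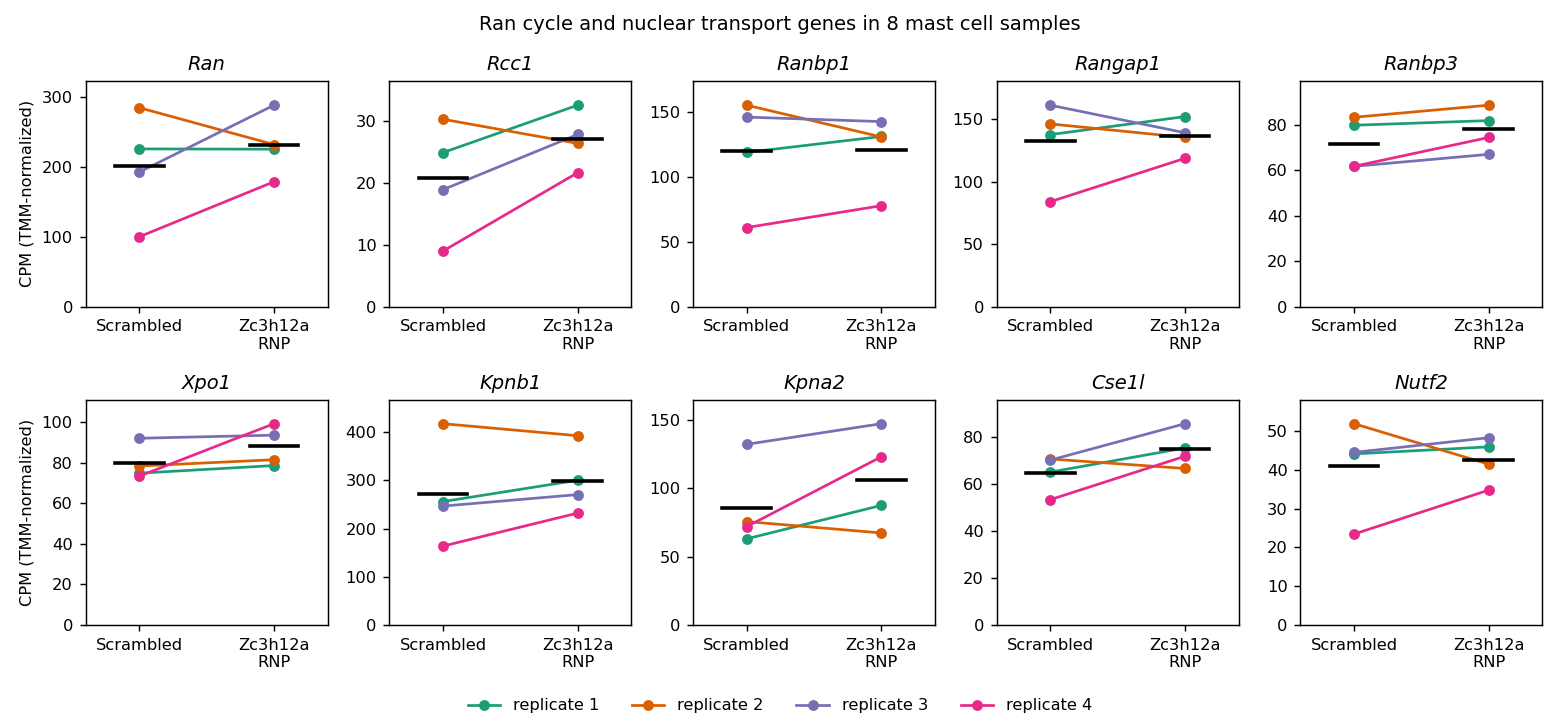
TMM-normalized CPM (linear axes from 0, a separate axis per gene) of the 10 genes in scrambled and *Zc3h12a* RNP samples. Points are samples, lines join samples of a replicate number, and black bars are group means of 4 samples. The ranges of both groups overlap for every gene, and replicate 4 (pink) is the lowest scrambled sample for 8 of 10.

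All 10 genes had a log2 fold change above 0 (range 0.05 to 0.48, median 0.17), where 57.8% of all genes tested did and the median over all genes tested was 0.038. All 10 stayed above 0 with RLE size factors and with total counts in place of TMM factors, where 72.2% of all genes were above 0 in the latter. None of the 10 passed the call rule, a log2 fold change larger than 0.5 in either direction with an adjusted p of at most 0.05, in edgeR's quasi-likelihood test with Benjamini-Hochberg adjustment over all genes, nor in DESeq2 or limma-trend, and 0% of all genes tested were called by edgeR. The adjusted p in edgeR was 0.796 for *Rcc1*, 0.855 for *Cse1l*, 0.865 for *Kpna2*, 0.925 for *Kpnb1* and 0.96 for *Ran*, *Rangap1*, *Ranbp3*, *Xpo1* and *Nutf2* and 0.962 for *Ranbp1*. At an unadjusted p at or under 0.05 in edgeR, 1 of the 10 genes, *Rcc1*, was higher and 0 were lower, against 2.12% of all genes tested that were higher and 4.05% that were lower. DESeq2 and limma-trend likewise placed 1 of the 10 genes at or under that p on the higher side, where they placed 0.857% and 2.1% of all genes. This count turned on the scaling in edgeR: with total counts, 6 of the 10 genes were higher at that p, against 6.37% of all genes (1.9% lower), and with RLE size factors 0 were, against 0.857% (3.19% lower). It turned on other settings too. After removal of the replicate effect and limma-trend, 6 of the 10 genes were higher at that p, as were 1142 of 14934 genes. Without the filter on low counts, 2 of the 10 were, beside 368 of 23473 genes.

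The counts by pair give the same picture of small differences within a wide spread. Of the 10 genes, 2 (*Ranbp3* and *Xpo1*) were higher in 4 of 4 pairs, against 4.98% of all genes tested, and 0 were lower in 4 of 4 pairs, against 8.54%. For 0 of the 10 genes did the groups not overlap, against 0.924% of all genes. In exact two-sided tests that flip the sign of each pair's difference, p was 0.125 for *Ranbp3* and *Xpo1*, the smallest that 16 sign assignments allow, and 0.25 to 0.75 for the other genes, so that this design cannot reach 0.05 for 1 gene. The 10 genes were read from the same 8 samples and are not independent replicates.

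**Figure D2:**
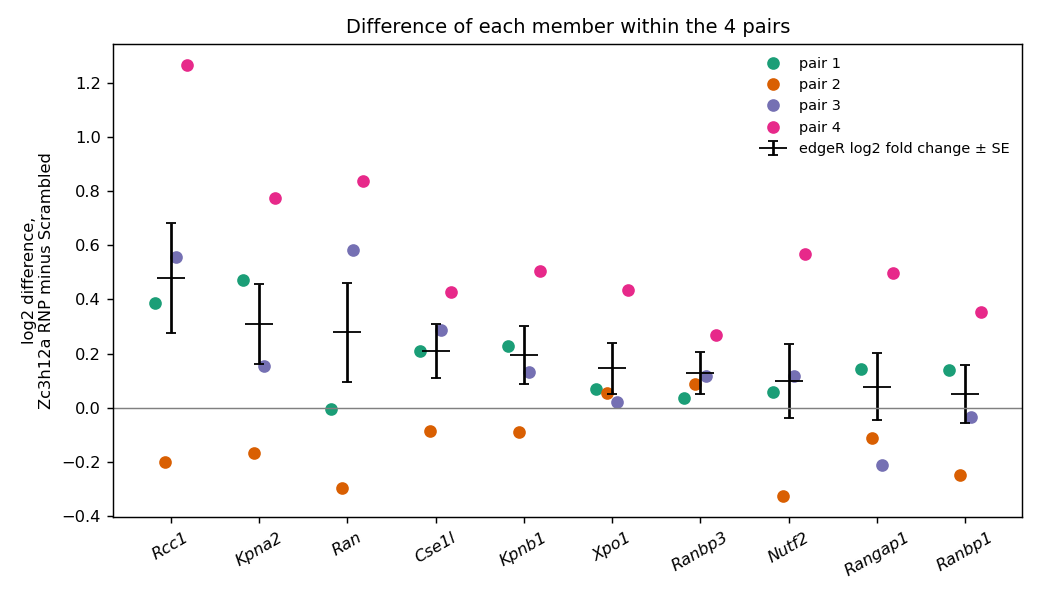
Difference in log2 CPM (*Zc3h12a* RNP minus scrambled RNP) within each of the 4 pairs for the 10 genes, ordered by log2 fold change. Coloured points are pairs, black bars are the edgeR log2 fold change ± SE over 8 samples. Pair 4 lies above 0 for 10 of 10 genes, whereas pair 2 lies below 0 for 8 of 10 with TMM factors, 10 of 10 with RLE size factors and 5 of 10 with total counts.

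The pairs differed in direction. The median difference of the 10 genes was 0.14 in pair 1, -0.14 in pair 2, 0.13 in pair 3 and 0.50 in pair 4, while the median over all genes tested lay between -0.06 and 0.03 (all with TMM factors). In pair 4, all 10 genes were higher, against 44.3% of all genes tested; this count was also 10 with RLE size factors and with total counts. In pair 2, only *Ranbp3* and *Xpo1* were higher with TMM factors, 0 with RLE size factors and 5 with total counts. All genes moved with the scaling in pair 2, where 51.2%, 38.1% and 68.3% of genes tested were higher in that order, with medians of 0.0089, -0.12 and 0.13, beside medians of -0.14, -0.27 and -0.013 for the 10 genes. Pair 1 had 9 of 10 genes higher (8 with RLE size factors and 10 with total counts), and pair 3 had 8 of 10 (8 and 9).

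The difference in pair 4 coincided with a low scrambled sample. Scrambled replicate 4 held the lowest value of all 8 samples for 8 of the 10 genes, the exceptions being *Kpna2* and *Ranbp3*, and 0 of the 10 genes were above their own mean there. With each gene centred on its mean log2 CPM over the 8 samples, the median of the 10 genes was -0.70 in scrambled replicate 4 and between -0.11 and 0.27 in the other samples. The 15 proliferation genes (*Mki67*, *Top2a*, *Pcna*, the *Mcm* genes and others) had a median of -0.89 in the same sample, and between -0.19 and 0.45 in the others. Within pairs, their medians were 0.34, -0.09, 0.21 and 0.99, with the same signs as the medians of the 10 genes. The part of proliferation, or of the lower total count of that sample, in the values of the Ran cycle genes was not tested. Summed, the proliferation genes ranged from 1223 to 2734 CPM after the scrambled RNP and from 2228 to 2967 CPM after the *Zc3h12a* RNP.

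**Figure D3:**
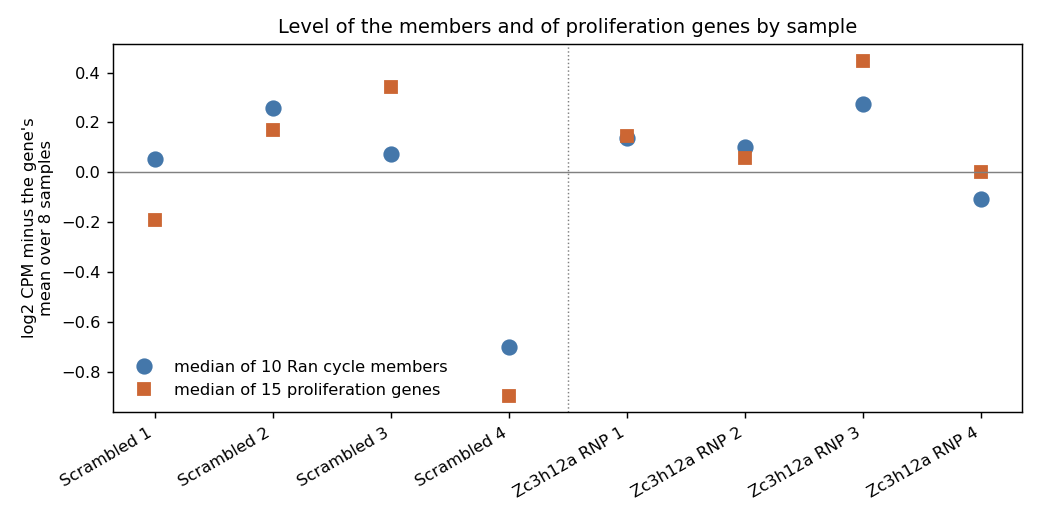
Median over 10 Ran cycle genes (circles) and over 15 proliferation genes (squares) of log2 CPM minus each gene's mean over the 8 samples, by sample. Both medians are lowest in scrambled replicate 4, at -0.70 and -0.89.

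Leaving out pair 4 moved all 10 fold changes down, to a median of 0.09. Of the 10 genes, 7 were then above 0, against 54.2% of all genes tested, and *Nutf2* (-0.05), *Ranbp1* (-0.05) and *Rangap1* (-0.06) were below it; *Ran* was at 0.09 and *Rcc1* at 0.25. Without pair 2, the median was 0.33 and 5 of the 10 genes were higher with an unadjusted p of at most 0.05, as were 4.58% of all genes. *Rcc1* was then called, with a log2 fold change of 0.78 (adjusted p 0.0028, Benjamini-Hochberg, by the quasi-likelihood test of edgeR), where 0.53% of all genes were called as higher. That call of *Rcc1* was the only call of any of the 10 genes in the 12 other settings tried. In the fit without pair 2, the SEs of the 10 genes lay between 0.168 and 0.176, against 0.078 to 0.20 over all 8 samples. Its p values thus rest on a spread shared across genes. They do not measure the spread of *Rcc1* itself, whose differences were 0.39, 0.56 and 1.26 in pairs 1, 3 and 4.

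**Figure D4:**
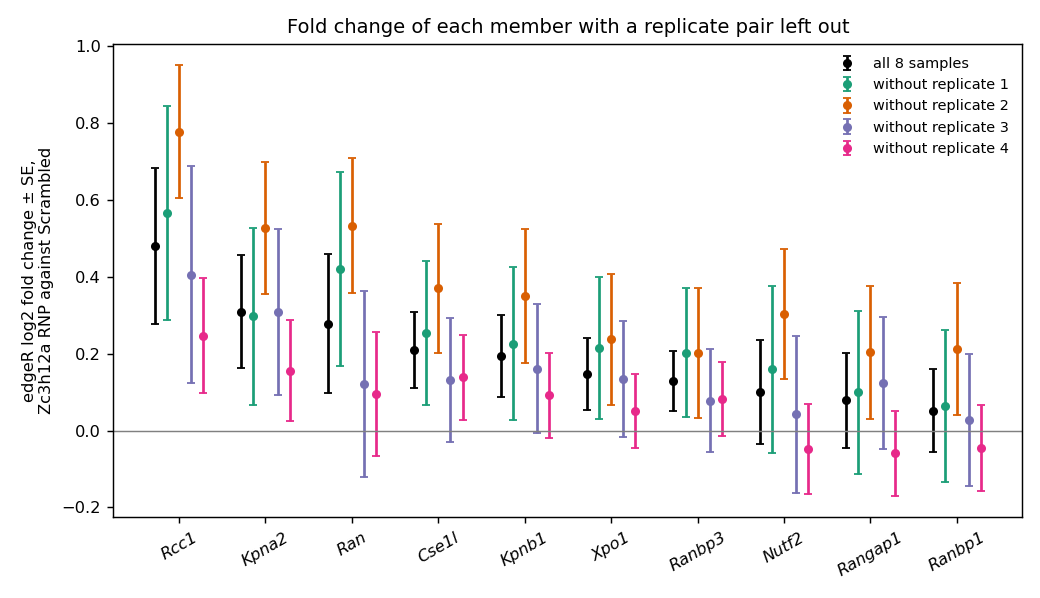
edgeR log2 fold change ± SE of the 10 genes over all 8 samples (black) and with each replicate pair left out in turn (colours). Without pair 4, values are the lowest for 8 of 10 genes and 3 lie below 0; without pair 2, they are the highest for 9 of 10.

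Ratios between partners were compared within samples, as differences in log2 CPM. *Rcc1* relative to *Rangap1*, the exchange factor against the GTPase activator, moved by 0.42 ± 0.42 (SD, n = 4 pairs) and was higher in 3 of 4 pairs, with pair 2 lower by 0.09. *Ranbp1* relative to *Ran* moved by -0.23 ± 0.38, higher in 2 pairs, and *Ran* relative to its carrier *Nutf2* by 0.18 ± 0.24, higher in 3 pairs. *Kpna2* relative to *Cse1l* (0.10 ± 0.24), *Kpnb1* relative to *Xpo1* (0.05 ± 0.13) and *Ranbp3* relative to *Xpo1* (-0.02 ± 0.11) moved less. Over these 6 ratios, exact two-sided sign-flip tests gave p values of 0.25 to 0.75 (0.6 to 0.75 after Benjamini-Hochberg adjustment), with a smallest possible p of 0.125. *Rcc1* relative to *Rangap1* ranged from -3.21 to -2.27 on the log2 scale after the scrambled RNP and from -2.45 to -2.22 after the *Zc3h12a* RNP.

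Levels between genes were compared as CPM per kilobase of the union of a gene's exons. *Kpnb1* (41.4 ± 12.2, SD over 8 samples) and *Ran* (39.8 ± 11.2) came first, followed by *Kpna2* (27.2 ± 9.37), *Ranbp1* (26.8 ± 7.49) and *Rangap1* (22.5 ± 4.01). *Xpo1* (9.88 ± 1.14), *Cse1l* (8.99 ± 1.18), *Nutf2* (8.79 ± 1.88) and *Ranbp3* (8.08 ± 1.11) formed a lower set, and *Rcc1* was last at 4.12 ± 1.29. Neighbours in this order overlapped except *Rangap1* above *Xpo1* and *Ranbp3* above *Rcc1*, for which the ranges over the 8 samples were separate. *Rcc1* was also the lowest per kilobase of longest transcript and of coding length, whereas the first place went to *Ranbp1* and to *Ran* with these lengths. With coding length, *Ran* was at 332 ± 93.5 CPM per kilobase, above *Ranbp1* (197 ± 55.2) in 8 of 8 samples; for *Ran*, the coding sequence has 648 bases and the union of exons 5415. Which length the reads covered is not shown by the counts.

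The pattern of *Ran* over the 8 samples was matched closely by some genes of the cycle and less closely by others. As a measure of likeness, the root mean square distance between the centred log2 CPM of 2 genes over the 8 samples was used, among 9667 other genes with a mean log2 CPM above 2. This distance depends on how widely each gene varies as well as on its order of samples. *Apoo*, the gene of a mitochondrial inner membrane protein (0.09), *Ndufa4*, the gene of a respiratory chain subunit (0.098), *Rpa2*, the gene of a subunit of the single-stranded DNA-binding complex RPA (0.10), *Mtap*, a gene of methionine salvage (0.11), and *Siva1* (0.11) were nearest to *Ran*. Of the cycle genes, *Nutf2* was at 0.16 (rank 53), *Rcc1* at 0.20 (rank 170), *Ranbp1* at 0.22 (rank 252), *Kpnb1* at 0.26 (rank 580) and *Rangap1* at 0.27 (rank 754). *Cse1l* (0.33), *Ranbp3* (0.38) and *Xpo1* (0.45) were farther, and *Kpna2* at 0.58 (rank 7216) lay beyond the median distance of all genes, 0.47. Between export genes, *Xpo1* and *Cse1l* were 0.15 apart, nearer than either was to *Ran*. Both varied less than *Ran*, with an SD of log2 CPM over the 8 samples of 0.16 and 0.19 against 0.49.

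The wider transport machinery was described from lists of related genes. All 10 importins of the beta family and transportins were above 0 (median log2 fold change 0.11), led by *Ipo13* (0.24, SE 0.11) and *Tnpo1* (0.19, SE 0.088), neither with an unadjusted p at or under 0.05. The other 5 exportins were above 0 as well (median 0.16; 4 of 5 with RLE size factors); *Xpo4*, the gene of an exportin for eIF5A, was at 42.4 ± 13.9 and 49.7 ± 13.0 CPM, with a log2 fold change of 0.25 (SE 0.096) and an unadjusted p of 0.033, and *Xpo5*, which exports precursor microRNAs, was at 0.16 (SE 0.094). Without pair 4, 7 of the 10 importins and 5 of the 5 exportins were above 0. The paralogs of *Kpna2* showed no common direction, with *Kpna4* at -0.11, *Kpna1* at -0.03, *Kpna3* at 0.0038, *Kpna6* at 0.10 and the scarcely expressed *Kpna7* at 0.24 (SE 0.69).

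Among 27 nucleoporins listed (of 29 sought; *Nup42* and *Nup58* were not among the symbols), 23 had a log2 fold change above 0, with a median of 0.19. This was 22 with RLE size factors, 25 with total counts and 22 without pair 4, with medians of 0.17, 0.26 and 0.12. At the unadjusted threshold, 7 were higher and 1 was lower (2.12% and 4.05% of all genes tested), and 0 were called by edgeR. *Nup210*, the gene of a membrane-anchored pore protein, was at 32.7 ± 11.7 CPM after the scrambled RNP and 44.9 ± 10.5 CPM after the *Zc3h12a* RNP (n = 4 each), a log2 fold change of 0.51 (SE 0.16), and *Nup205*, the gene of an inner ring scaffold, was at 69.4 ± 17.2 and 88.1 ± 5.64 CPM, a log2 fold change of 0.38 (SE 0.13). Both were higher in 4 of 4 pairs, as were 9 of the 27 against 4.98% of all genes tested, and their adjusted p values were 0.656 and 0.686 in edgeR's quasi-likelihood test with Benjamini-Hochberg adjustment. *Nup43* was chosen after its values were seen, as the 1 nucleoporin of 27 whose groups did not overlap, against 0.924% of all genes tested. It was at 2.48 ± 0.426 and 3.82 ± 1.02 CPM, a log2 fold change of 0.60 (SE 0.32). Its unadjusted p was 0.099 in edgeR's quasi-likelihood test.

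Adaptors and mRNA export genes did not share this direction. The 3 adaptors of exportins were below 0 (median -0.23), with *Phax*, which links small nuclear RNAs to CRM1, at 37.6 ± 4.32 and 32.1 ± 3.30 CPM (log2 fold change -0.23, SE 0.077, lower in 4 of 4 pairs, unadjusted p of 0.019) and *Snupn* at -0.24 (SE 0.11). Of 14 mRNA export genes, whose main receptor does not use the Ran gradient, 6 were above and 8 below 0 (median -0.05; 8 above and 6 below with total counts). *Ddx19a*, the gene of an RNA helicase at the pore, was at -0.19 (SE 0.096) and *Thoc5*, of the THO complex, at 0.15 (SE 0.08). *Nxf1*, the main mRNA export receptor, was named after its values were seen because its groups did not overlap, as for 0.924% of all genes tested. It was at 134 ± 4.17 and 124 ± 3.01 CPM (log2 fold change -0.11, SE 0.075). Its unadjusted p was 0.194 in edgeR's quasi-likelihood test. Of 8 genes of the SUMO pathway that modifies RanGAP1, 5 were above 0 (median 0.05), with *Sae1*, of the SUMO-activating enzyme, at 0.18 (SE 0.11).

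Of 6 spindle factors that act downstream of Ran-GTP, 5 were above 0 (median 0.28), led by *Kifc1*, a minus-end kinesin (0.36, SE 0.18), and *Hmmr* (0.34, SE 0.18). The median of the 6 was 0.07 without pair 4. The 15 proliferation genes were all above 0 (median 0.35, or 0.17 without pair 4). At an unadjusted p of at most 0.05 in edgeR, 6 of them were higher, against 2.12% of all genes tested. *Ccnb1* (0.41, SE 0.15) and *Mcm5* (0.44, SE 0.17) came first. Further genes that bind or regulate Ran (8 tested) had a median of 0.037, close to that of all genes, with *Rcc2* at 0.19 (SE 0.097) and *Ranbp17* at 0.30 (SE 0.21). None of these lists held a gene that edgeR called over the 8 samples.

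**Figure D5:**
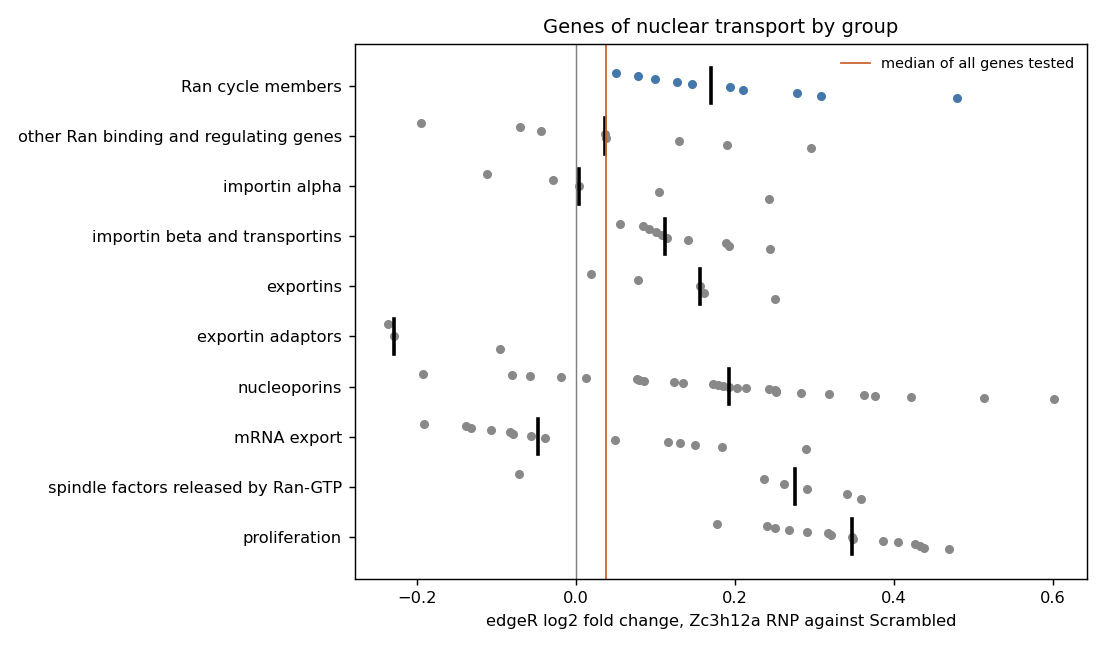
edgeR log2 fold change of each tested gene (points) in the 10 Ran cycle genes (blue), in other transport groups and in proliferation genes (grey); black bars are group medians and the orange line is the median of all genes tested, 0.038. Ran cycle genes, importins of the beta family with transportins, exportins, nucleoporins, spindle factors and proliferation genes have medians above that line. The adaptors (labelled exportin adaptors, though *Snupn* among them serves import), mRNA export genes and importin alpha genes (median 0.0038) have medians below it. Other genes that bind or regulate Ran have a median close to it, at 0.037.

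The sequence before the start site is shown for *Ran*, *Ranbp1*, *Kpnb1* and *Kpna2*. By the distance above, *Ranbp1* was at 0.22 and *Kpnb1* at 0.26 from *Ran*, and *Kpna2* was the farthest of the 10 genes. *Nutf2* (0.16) and *Rcc1* (0.20) were nearer to *Ran* but are not shown. Each line gives the 110 bases upstream of the canonical transcript's start on the coding strand of GRCm39, at chr5:129096682-129096791 (plus strand) for *Ran*, chr16:18066604-18066713 (minus) for *Ranbp1*, chr11:97078811-97078920 (minus) for *Kpnb1* and chr11:106890368-106890477 (minus) for *Kpna2*. Capitals mark CCAAT boxes (CCAAT or ATTGG) and elements of the type that cell cycle genes carry (CHR, TTTGAA or TTCAAA).
Ran: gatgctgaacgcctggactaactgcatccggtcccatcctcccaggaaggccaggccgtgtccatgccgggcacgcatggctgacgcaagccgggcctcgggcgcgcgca
Ranbp1: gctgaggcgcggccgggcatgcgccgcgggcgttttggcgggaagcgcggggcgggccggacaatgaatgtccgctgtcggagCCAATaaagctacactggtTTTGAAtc
Kpnb1: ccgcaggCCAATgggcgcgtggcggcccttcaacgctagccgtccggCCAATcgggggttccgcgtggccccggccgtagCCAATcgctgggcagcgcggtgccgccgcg
Kpna2: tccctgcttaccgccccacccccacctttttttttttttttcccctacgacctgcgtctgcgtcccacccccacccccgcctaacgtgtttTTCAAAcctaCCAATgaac

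The stretch of *Ran* holds neither motif, that of *Kpnb1* holds 3 CCAAT boxes, and those of *Ranbp1* and *Kpna2* hold a CCAAT box and a CHR element close together. The stretches of *Nutf2* and *Rcc1*, which are not shown, hold neither motif. In windows from 250 bases before to 50 bases after the start site, searched on both strands, a CCAAT box was found for 7 of the 10 genes (not *Ran*, *Rangap1* and *Nutf2*), against 39.9% of 21770 promoters. CHR letters were found for *Ranbp1*, *Kpna2* and *Rcc1*, against 17.1%. An E2F site (TTTCCCGC, GCGGGAAA, TTTGGCGC or GCGCCAAA) was found for *Ranbp1*, from base 9 of the transcript, against 2.01%, and an E-box (CACGTG) for 0 of the 10, against 7.81%. None of the 18 matches overlapped another. In the annotation, the *Ranbp1* and *Kpnb1* stretches lie partly in exons of other transcripts of the same genes, exons of *Trmt2a* on the other strand and the gene model Gm49776 also overlap that of *Ranbp1*, and a noncoding gene on the other strand overlaps that of *Kpnb1*; how reads of overlapping genes were divided between them is not given in the sources used here. These matches describe letters and were not compared with the measured levels.

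The 3′ untranslated regions were searched for the simplest form of the stem-loop that Regnase-1 binds, here 5 perfect base pairs around a loop of UAU or UGU. One match was found among the 10 genes, in *Ranbp3*, starting at base 168 of a region of 872 bases (chr17:57018067-57018079, plus strand, GRCm39), shown because it carries the only such letters, with the loop in capitals.
Ranbp3: caucaUAUugaug

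The region of *Ran*, with 3929 bases the longest of the 10, held 0 matches, as did the other 8 genes, while 11.7% of 20768 annotated regions held at least 1. Looser stems and other loop letters were not searched. *Ranbp3* had a log2 fold change of 0.13 (SE 0.078) and was higher in 4 of 4 pairs by 0.04 to 0.27, with the exception under RLE size factors given above.

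The counts behind these values ranged from 189 to 12534. The lowest of any of the 10 genes was 189, for *Rcc1* in scrambled replicate 4, at which counting error alone is 7.27% of the value; for *Ran* the lowest count was 2095, with a counting error of 2.18%. Near-identical copies took few reads in these files, with 2 to 6 counts per sample for *Kpna2-ps*, 0 to 9 for *Nutf2-ps1* and 0 to 2 for *Rasl2-9*, a *Ran*-like copy, at most 0.387%, 0.68% and 0.0955% of the parent gene's count. Reads that match *Ran* and a copy equally could have been dropped or assigned to either, which these files do not show.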

How the data were processed

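Poly(A) RNA-seq was performed on 4 scrambled and 4 *Zc3h12a* RNP samples, with samples of a group described as independent biological replicates. Per the labels and the study's methods, the authors checked reads with FastQC 0.11.9, aligned them to GRCm39 with HISAT2 2.2.1 and counted them per gene with featureCounts 2.0.1; the deposited values are raw counts per gene symbol, without the batch correction that the methods name. Strand setting is not given in the sources used here.

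Counts were tested with edgeR 4.0.16 (R 4.3.3): TMM factors, the filter on low counts by group, and the quasi-likelihood test, blocked on replicate number. Calls needed an absolute log2 fold change above 0.5 with an adjusted p (Benjamini-Hochberg over 14934 genes) of at most 0.05. SE was the absolute log2 fold change over the square root of F; log2 CPM used a prior count of 2. Alternatives used limma 3.58.1 and DESeq2 1.42.0, other scalings, filters and replicates; the script was tested on simulated data. Plots were made in Python 3.11.15 (matplotlib 3.10.9). Lengths, promoters and untranslated regions come from GENCODE's annotation of GRCm39 and that genome; 22601 of 24059 symbols matched.

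Pairing rests on the series' design, by which 4 mice gave cells to both groups. After subtraction of group means, same-numbered samples correlated at 0.756, 0.718, 0.728 and 0.719 over 9668 genes with a mean log2 CPM above 2 (0.137 at most between other samples), and at 0.595, 0.0752, 0.624 and 0.0414 over all genes tested (where samples of other numbers reached 0.398, more than pairs 2 and 4 did). No 2 samples of a group agreed within sampling noise.

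Named were the 10 genes, their paralogs, the 2 genes of each other list with the lowest unadjusted p, and the 5 genes nearest to *Ran*; exceptions are stated, and 1 gene that the rule names is not reported here. The members, lists and tests were chosen with earlier results of these data known.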

Additional observations from a re-analysis of the deposited data

Results flagged for a closer look

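Of 20 groups of 4 samples (10 genes in each RNP group), 1 held a sample that stood apart by Dixon's criterion, about as many as chance gives (1 in 20). *Ranbp1* in *Zc3h12a* RNP replicate 4 was at 77.6 CPM, below the other samples of its group, and its gap to the nearest was 0.857 of the group's range of log2 CPM (critical value 0.829).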

How the results depend on the processing

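Each of the 10 fold changes was recomputed in 12 other settings; of these 120 values, 116 kept direction and side of the threshold. *Nutf2* (-0.048), *Ranbp1* (-0.046) and *Rangap1* (-0.059) turned below 0 without replicate 4 (with a replicate left out in turn, their highest values were 0.30, 0.21 and 0.20), and *Rcc1* was called without replicate 2, so the number of the 10 genes called ranged from 0 to 1 with a replicate left out. The cause was not tested. Without the replicate block, the 10 genes stayed above 0 (median 0.14), with 0 at an unadjusted p at or under 0.05. Over all genes, the number called as higher was 8 with DESeq2, 34 after removal of the replicate effect and limma-trend, and 9 without a filter on low counts, and 0 to 80 with a replicate left out. The number called as lower was 50, 79 and 31 in these settings, 1 with limma-trend, 1 with RLE size factors, 3 with at least 10 counts in every sample, and 0 to 57 with a replicate left out. By level per kilobase, *Ran* ranked 2 with exon length, 3 with the longest transcript and 1 with coding length, which was added after seeing the data. Counting error was at most 7.27% for any of the 10 genes, and the smallest p that an exact sign-flip test over 4 pairs allows is 0.125.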
